A study of Mus musculus with 9 samples.

Results

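Complement and blood clotting are made up largely of liver proteins, and 44 of their genes, of 16857 in the deposited table, were followed across acetaminophen-injured mouse liver. They were taken by gene symbol as 17 complement genes, 16 genes of the clotting, contact and fibrin systems, and 11 genes for inhibitors and regulators. Every mouse had received acetaminophen (APAP) and afterwards leonurine or saline. The groups were Adipor2 knockout given leonurine (2 libraries), Adipor2 knockout given saline (2), wild type given leonurine (2) and wild type given saline (3), and no library came from uninjured liver. The series asks whether leonurine, an alkaloid called SCM-198 in its title, acts in drug-injured liver through Adipor2, a receptor for the fat-cell hormone adiponectin. The sources used here state no dose, interval between the injections, strain, age, sex or form of the deletion. Whether replicates are separate animals is also not stated, so p-values measure the spread between these libraries, which may be technical.

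Complement is a cascade of plasma proteins that tags microbes and damaged cells, recruits inflammatory cells and can pierce membranes with a pore built from its terminal components. Clotting is a parallel cascade of serine proteases that ends when thrombin cuts fibrinogen into fibrin, and plasmin later dissolves the clot. Hepatocytes make most of these proteins, and fibrinogen and C3 are acute-phase proteins whose synthesis increases in inflammation, under interleukin-6 for fibrinogen.

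Expression is given as FPKM, the number of fragments scaled by transcript length and by library total, which allows levels of different genes to be compared. The libraries held 35316653 to 38996734 fragments, as recovered from the FPKM values. Adipor2 itself was 75.8 and 85.0 FPKM in knockouts given leonurine, 70.1 and 76.0 in knockouts given saline, 78.5 and 88.2 in wild type given leonurine, and 126 to 141 in wild type given saline. Because its transcript was present in every library, the mutants are called labelled knockouts. On the first principal component of all tested genes, wild type given leonurine replicate 2 stood farthest out at 52.2, replicate 1 was at 26.4 and the other 7 libraries were between -35.0 and -0.8. Transcripts of 4 Y-linked genes gave 0 and 2 fragments in labelled knockouts given leonurine, against 4154 to 5275 in the other 7 libraries. Sex and group therefore cannot be told apart in any comparison that uses labelled knockouts given leonurine. The 5 hepatocyte markers were abundant in every library, summing to 33532 to 82196 FPKM, and the 5 platelet markers summed to only 1.03 to 3.22 FPKM. In whole liver, fewer cells of a type and less RNA per cell cannot be told apart.

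Of the 44 genes, 43 reached at least 1 FPKM in all 9 libraries and were tested. The exception was Cfd, encoding complement factor D (adipsin), which had at most 5 fragments in any library. Fgb was the most abundant member, at a mean of 5753 FPKM over the 9 libraries, followed by C3 at 3953, Fga at 3549 and Fgg at 2978. Vtn (vitronectin), Plg (plasminogen) and Kng1 (kininogen, the source of bradykinin) followed at means of 1637, 1086 and 1053 FPKM. Among the tested genes expression was lowest for Thbd (thrombomodulin), F8 (factor VIII) and Tfpi (tissue factor pathway inhibitor), which averaged 5.85, 2.78 and 1.86 FPKM. Outside this study these 3 genes are known mainly as endothelial products. The 44 genes together took 5.81% and 8.07% of fragments in labelled knockouts given leonurine, 5.59% and 6.01% in labelled knockouts given saline, 9.55% and 14.1% in wild type given leonurine, and 6.10% to 6.44% in wild type given saline.

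In 9 of the complement genes called in none of the 5 comparisons, the highest value over the libraries was 1.27 to 2.52 times the lowest. C3, C8a and C8b, also called in none and described below, had ratios of 2.868, 2.321 and 2.535. The classical pathway proteases C1ra and C1s1 were between 98.6 and 125 FPKM and between 132 and 181 FPKM, and C4b, cleaved by C1s to form the convertase, between 265 and 666 FPKM. C2, the protease of that convertase, was between 21.0 and 51.7 FPKM, and Cfb (factor B), its counterpart in the alternative pathway, between 497 and 702 FPKM. Cfp, properdin, which stabilizes the alternative convertase, was between 15.0 and 30.2 FPKM. Of the lectin pathway, Mbl1 (mannose-binding lectin A) was between 26.5 and 53.7 FPKM and its proteases Masp1 and Masp2 between 16.4 and 27.9 FPKM and between 65.3 and 106 FPKM.

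The clotting factors F5, F9, F12 and F13b were likewise called in no comparison. F5, the cofactor of factor Xa, was between 97.2 and 173 FPKM, F9, the protease lost in human hemophilia B, between 67.5 and 96.0 FPKM, and F12, which starts the contact pathway, between 199 and 280 FPKM. F13b, the carrier subunit of the fibrin-crosslinking factor XIII, ran more widely, with 74.1 and 109 FPKM in labelled knockouts given leonurine, 118 and 84.3 in labelled knockouts given saline, 63.2 and 39.5 in wild type given leonurine, and 81.8, 103 and 90.8 in wild type given saline. Among inhibitors, the complement regulators Cfi (factor I), C4bp (C4b-binding protein) and Serping1 (C1 inhibitor) were between 340 and 556 FPKM, between 396 and 735 FPKM and between 469 and 710 FPKM. Serpinc1, antithrombin, was between 666 and 1096 FPKM, Serpinf2, the plasmin inhibitor alpha-2-antiplasmin, between 337 and 610 FPKM, and Pros1 (protein S, the cofactor of activated protein C) between 23.5 and 44.6 FPKM. These 6 inhibitors were also called in no comparison.

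**Figure D1:**
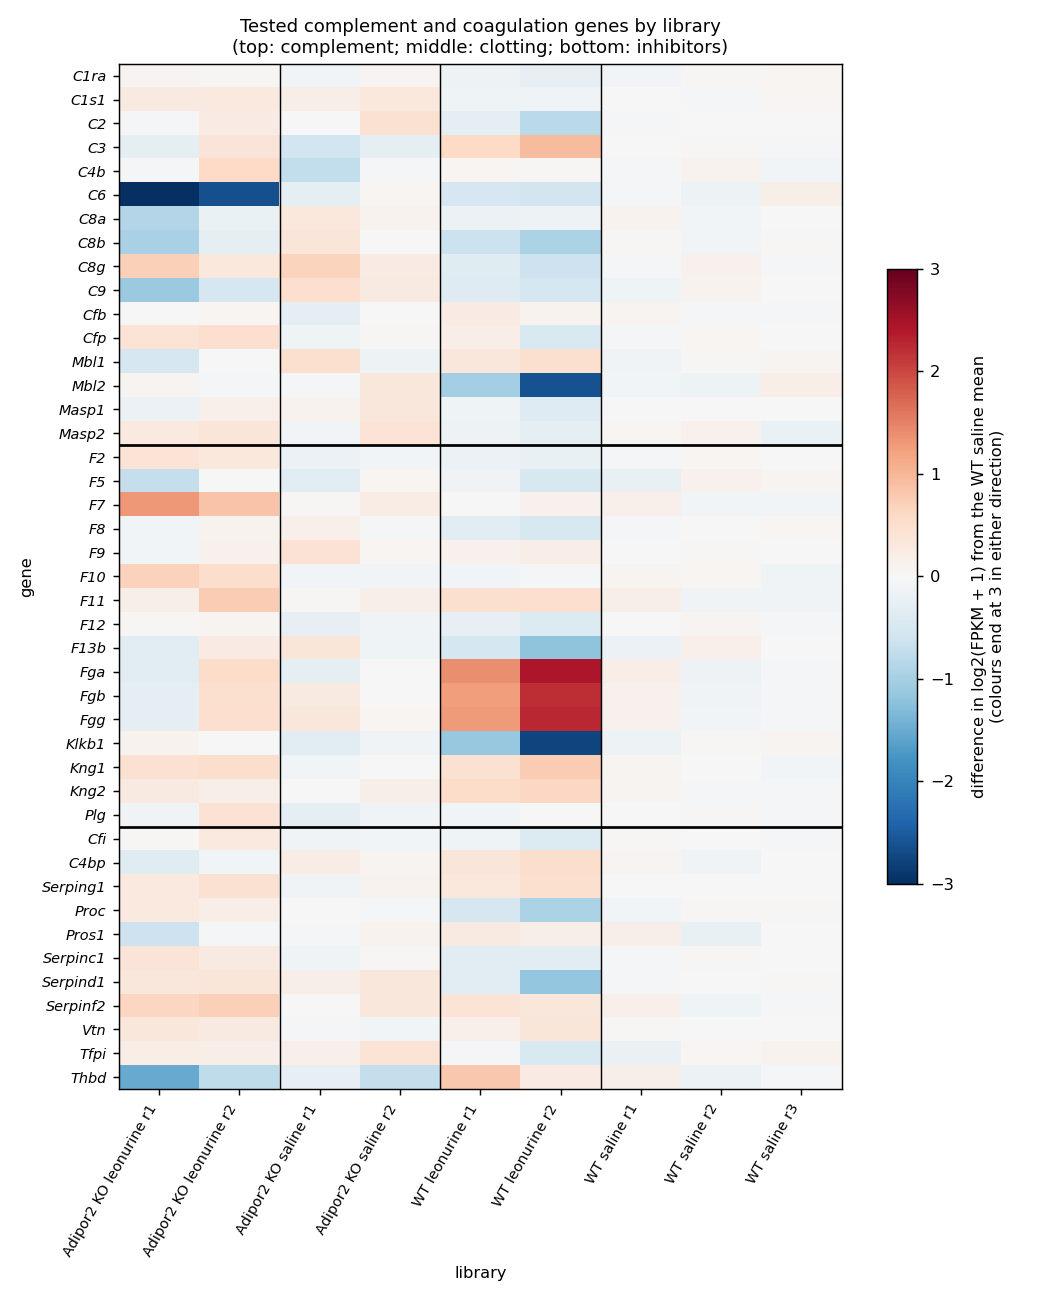
Level of each of the 43 tested genes in each of the 9 libraries, as log2(FPKM + 1) minus the mean of wild type given saline. Rows are genes by role (complement at the top, clotting in the middle, inhibitors at the bottom) and columns are libraries, with colours that end at 3 in either direction. The fibrinogen genes stand out as higher in wild type given leonurine, and C6 as lower in labelled knockouts given leonurine.

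Leonurine was first compared with saline in wild type. The 3 fibrinogen genes rose to more than 3 times the saline level, while Klkb1, Mbl2 and Proc fell. These were 3 members higher, where 1.9% of 10451 tested genes were called higher, and 3 lower, where 4.72% were called lower. Fibrinogen is a hexamer of paired alpha, beta and gamma chains, encoded by Fga, Fgb and Fgg, and is the substrate of the clot. The genes lie side by side on chromosome 3 (mm10), Fgg at 83007724 to 83015049 and Fga at 83026076 to 83033627 on the plus strand, and Fgb at 83040141 to 83049863 on the minus strand. Their promoter windows, from 250 bases before to 50 after the RefSeq transcription start (GRCm38.p6), are shown because these genes moved together. Each is written 5′ to 3′ on the strand of its gene, with capitals marking matches on either strand to motifs known for fibrinogen promoters: CTGGGAA (the type II interleukin-6 response element), TTGCNNAA (a C/EBP core) and GTTAAT (part of an HNF1 site).
Fga, chr3:83025903-83026202, plus strand: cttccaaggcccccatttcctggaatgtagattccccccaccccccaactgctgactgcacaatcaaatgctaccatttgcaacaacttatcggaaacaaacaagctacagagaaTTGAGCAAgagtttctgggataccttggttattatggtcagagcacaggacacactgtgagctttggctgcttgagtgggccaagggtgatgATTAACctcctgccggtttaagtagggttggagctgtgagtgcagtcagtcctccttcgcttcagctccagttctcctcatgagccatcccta
Fgb, chr3:83049814-83050113, minus strand: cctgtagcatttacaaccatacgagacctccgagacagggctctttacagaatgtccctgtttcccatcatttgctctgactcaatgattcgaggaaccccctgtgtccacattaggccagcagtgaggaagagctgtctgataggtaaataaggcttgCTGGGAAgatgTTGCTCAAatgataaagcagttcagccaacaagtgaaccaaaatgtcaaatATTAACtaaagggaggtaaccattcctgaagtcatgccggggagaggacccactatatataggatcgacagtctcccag
Fgg, chr3:83007474-83007773, plus strand: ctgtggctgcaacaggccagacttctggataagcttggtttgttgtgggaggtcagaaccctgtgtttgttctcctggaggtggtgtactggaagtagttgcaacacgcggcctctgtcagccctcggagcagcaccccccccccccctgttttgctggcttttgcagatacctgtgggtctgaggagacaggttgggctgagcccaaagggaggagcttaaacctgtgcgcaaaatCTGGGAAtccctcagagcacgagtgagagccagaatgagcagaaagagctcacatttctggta

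The Fgb window held all 3 motifs, with CTGGGAA starting 91 bases before the transcription start, a C/EBP core at 80 and the HNF1 motif at 29. The Fga window held the C/EBP core at 135 bases and the HNF1 motif at 43 bases before the RefSeq start. That start lies downstream of the Fga gene start given above, so by those positions the HNF1 motif falls inside the gene. The Fgg window held CTGGGAA alone, at 13 bases before the start. No 2 of the motifs overlapped in these windows. Windows on chromosome 18, where Proc lies, were left out of the search. Of the 32851 mouse promoter windows of the same length that were searched, 11.1% held CTGGGAA, 10.8% TTGCNNAA and 7.10% GTTAAT. A window was searched for 34 of the 44 genes, and of these 9, 11 and 10 held the motifs in that order, where 12.7%, 12.2% and 8.24% of all genes with a searched window did. The Mbl2 window held none of the 3, and the Klkb1 window held a C/EBP core at 177 bases. These matches describe letters in a window and no binding was measured.

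Fgb, the beta chain, was 8622 and 16575 FPKM in wild type given leonurine, against 3934, 3332 and 3526 FPKM in wild type given saline. Fga, the alpha chain, was 5578 and 11373 FPKM with leonurine, against 2433, 1914 and 2024 FPKM with saline. Fgg, the gamma chain, was 4406 and 8668 FPKM with leonurine, against 1992, 1730 and 1741 FPKM with saline. Both leonurine libraries lay above every saline library for all 3 chains, and replicate 2 was the higher of them. The rises were 1.91 ± 0.35 for Fga (log2 fold change ± SE, adjusted p = 0.0173), 1.74 ± 0.33 for Fgb (adjusted p = 0.0198) and 1.77 ± 0.33 for Fgg (adjusted p = 0.0183), by limma on log2(FPKM + 1). Together the 3 transcripts were 3.88% and 7.68% of all fragments with leonurine, against 1.74%, 1.44% and 1.51% with saline. The calls ended without leonurine replicate 2, where the rises were 1.26 to 1.40. Without leonurine replicate 1 the rises were 2.43 for Fga, 2.21 for Fgb and 2.25 for Fgg. Each of these 2 fits leaves 1 library in that group. The calls ended as well without saline replicate 2 (adjusted p = 0.0748 to 0.0845) or saline replicate 3 (0.0723 to 0.0775). They also ended after quantile normalization, with rises of 0.87 to 1.19 (adjusted p = 0.0762 to 0.101).

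The Fgb level was between 1.88 and 2.02 times the Fgg level in all 9 libraries. The ratio of Fgb to Fga ran more widely, with 1.46 and 1.55 in wild type given leonurine against 1.62 to 1.74 in wild type given saline, and reached 2.49 in labelled knockout given saline replicate 1.

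**Figure D2:**
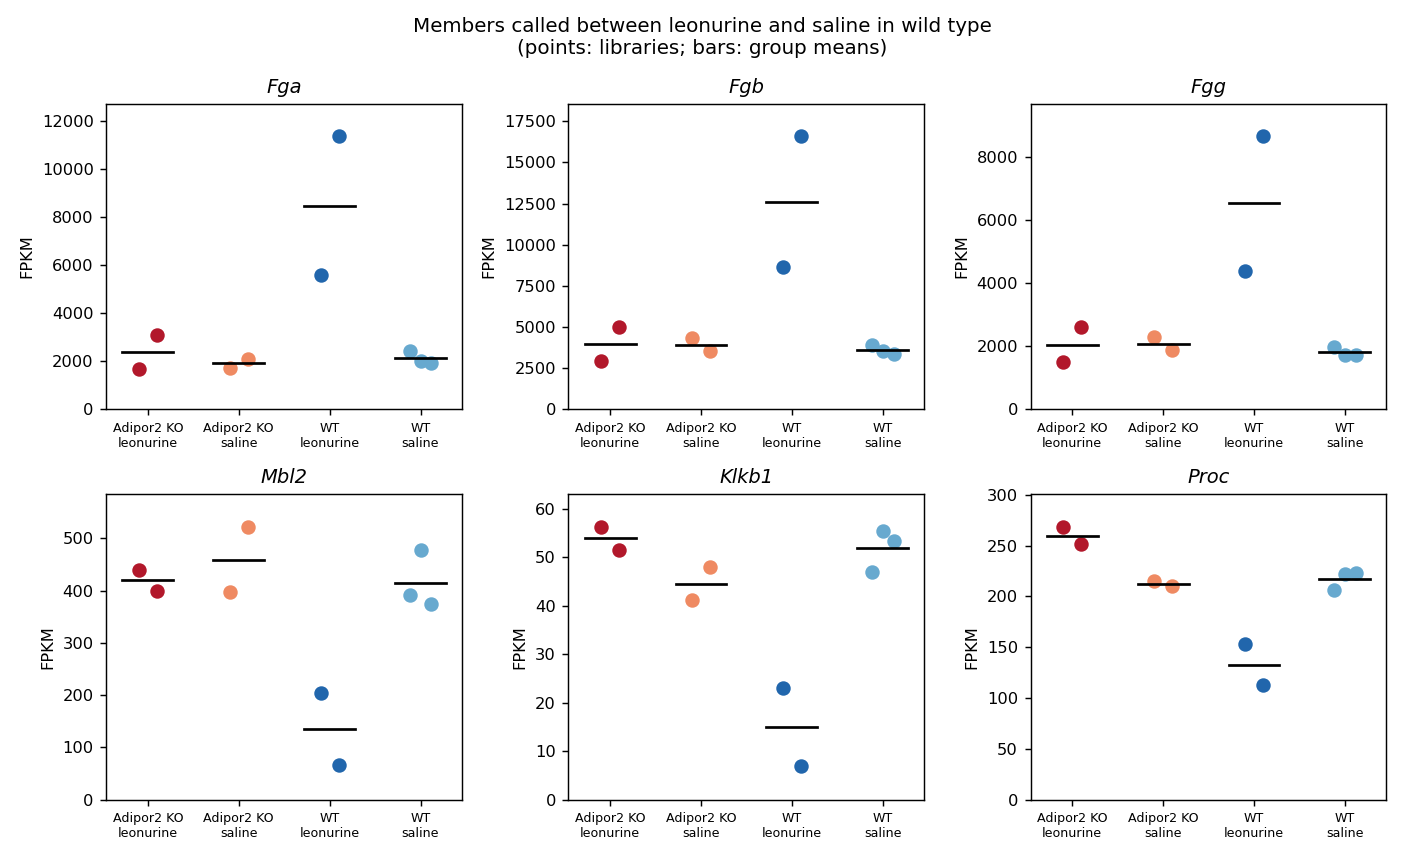
FPKM (vertical axes from 0) in each library of the 6 genes that passed the test for leonurine against saline in wild type, by group, with points for libraries and bars for group means. Fga, Fgb and Fgg are higher in wild type given leonurine than in any other library, and Klkb1, Mbl2 and Proc are lower there.

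Klkb1 encodes plasma prekallikrein, the contact-system protease that releases bradykinin from kininogen. It was 23.1 and 6.88 FPKM in wild type given leonurine, against 47.0, 53.4 and 55.4 FPKM in wild type given saline, a log2 fold change of -1.94 ± 0.37 (limma, adjusted p = 0.0202). Mbl2, mannose-binding lectin C, starts the lectin pathway of complement by binding sugars on microbes. It was 204 and 66.6 FPKM with leonurine, against 391, 375 and 478 FPKM with saline (log2 fold change -1.81 ± 0.39, adjusted p = 0.0293). Proc, protein C, is the precursor of an anticoagulant protease that inactivates factors V and VIII. It was 153 and 113 FPKM with leonurine, against 207, 223 and 222 FPKM with saline (-0.72 ± 0.18, adjusted p = 0.0448). For all 3 genes both leonurine libraries lay below the saline libraries, and replicate 2 was the lower of them. Without leonurine replicate 2 the log2 fold changes were -1.13 for Klkb1 (adjusted p = 0.0260), -1.01 for Mbl2 (0.0818) and -0.50 for Proc (0.224). Without leonurine replicate 1 they were -2.74 for Klkb1 and -2.61 for Mbl2. Leaving out saline replicate 2 or 3 ended the Klkb1 call (adjusted p = 0.0720 and 0.0753), and leaving out any saline library ended the Mbl2 call (0.0671, 0.0873 and 0.103). The Proc call ended in 8 of the 9 fits that left out 1 library, the most of the 6 genes.

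The median log2 fold change of the 43 genes was -0.13, and that of all tested genes -0.12. By role, complement had 0 higher and 1 lower of 16 tested, clotting 3 higher and 1 lower of 16, and inhibitors 0 higher and 1 lower of 11. Lack of overlap between the groups was not particular to called members, and its share over all tested genes was not counted. Some abundant members that missed the threshold are given here. C3, the hub of all complement pathways, was 5384 and 6807 FPKM with leonurine, against 3560, 3614 and 3412 FPKM with saline (log2 fold change 0.78 ± 0.25, limma adjusted p = 0.0995). Kng1 was 1195 and 1492 FPKM with leonurine, against 920, 870 and 832 FPKM with saline (0.61 ± 0.19, adjusted p = 0.0836). Its paralog Kng2 was 183 and 190 FPKM with leonurine, against 131, 120 and 121 FPKM with saline (0.58 ± 0.15, adjusted p = 0.0532). Serpind1, heparin cofactor II, an inhibitor of thrombin, was 264 and 146 FPKM with leonurine, against 319, 331 and 335 FPKM with saline (-0.74 ± 0.24, adjusted p = 0.0979). Fewer calls remained without leonurine replicate 2 and more without leonurine replicate 1, but both fits leave 1 library in that group. Without saline replicate 1 the counts were 3 higher and 1 lower, and without saline replicate 2 or 3 they were 0 and 0. They were also 0 and 0 when all 16857 genes were tested with no filter. The other 33 tested members had log2 fold changes between -0.86 and 0.53.

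Markers of several cell types also differed between these groups. The 6 neutrophil markers summed to 152 and 63.8 FPKM in wild type given leonurine, against 46.7, 11.4 and 9.60 FPKM in wild type given saline, and Ltf and Ngp were called higher. The 5 hepatocyte markers summed to 56482 and 33532 FPKM with leonurine, against 66438 to 72872 FPKM with saline, and Ttr was called lower. Most of each sum was Alb, at 46277 and 26493 FPKM with leonurine. Tat, another of the 5, was 732 and 735 FPKM with leonurine and overlapped the saline libraries, at 669 to 1033 FPKM. Of 5 endothelial markers Lyve1 was called higher and Oit3 lower, of 4 cholangiocyte markers Sox9 was called higher, and of the sex-biased liver genes Cyp2d9, Hsd3b5 and Cyp2a4 were called lower. Alb, the albumin gene, took 9.55% and 5.47% of fragments with leonurine, against 12.3%, 12.4% and 11.02% with saline. The part of these differences in the results above was not tested.

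Leonurine was next compared with saline in labelled knockouts, where none of the 3 fibrinogen genes passed. C6 and C9, components of the membrane attack complex, fell, and F7, the protease that starts clotting together with tissue factor, rose. Thus 1 member was called higher, where 0.603% of all tested genes were, and 2 were called lower, where 1.49% were. C6 (chromosome 15, 4727175 to 4814967) binds C5b to begin the pore, and C9 (chromosome 15, 6445327 to 6498751) polymerizes to complete it. C6 was 6.47 and 14.4 FPKM in labelled knockouts given leonurine, against 78.5 and 98.7 FPKM in labelled knockouts given saline. The log2 fold change was -3.05 ± 0.30 (limma, adjusted p = 0.000645), a fold of 0.120, and it passed in 16 of 16 alternative fits. C9 was 138 and 210 FPKM with leonurine, against 424 and 359 FPKM with saline (log2 fold change -1.19 ± 0.23, adjusted p = 0.0344). F7 was 89.3 and 65.7 FPKM with leonurine, against 36.6 and 42.1 FPKM with saline (0.95 ± 0.20, adjusted p = 0.0429). Lack of overlap between the groups did not set these genes apart, since it also held for uncalled genes such as F2 and Vtn. Its share over all tested genes was not counted.

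The calls of C9 and F7 were less firm than that of C6. Without labelled knockout given leonurine replicate 1 the log2 fold change of C9 was -0.89 (adjusted p = 0.109) and that of F7 was 0.73 (0.125). Leaving out labelled knockout given saline replicate 1 or 2 ended both calls, with C9 at -1.07 and -1.31 and F7 at 0.85 and 1.05. Leaving out any library of wild type given saline also ended both calls (limma adjusted p = 0.0697 to 0.0832 for C9 and 0.0782 to 0.0925 for F7). That leaves the compared means unchanged, but alters the estimate of spread and can alter which genes are tested. After median-ratio scaling, C9 was at -0.97 (adjusted p = 0.0955).

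None of the 3 chains of C8, which joins the pore between C6 and C9, passed. C8a, the alpha chain of C8, was 155 and 252 FPKM with leonurine, against 359 and 308 FPKM with saline (log2 fold change -0.75 ± 0.24, adjusted p = 0.129). C8b, the beta chain, was 88.3 and 143 FPKM with leonurine, against 224 and 177 FPKM with saline (-0.82 ± 0.25, adjusted p = 0.120). C8g, the gamma chain and a lipocalin unrelated to the rest, was 161 and 123 FPKM with leonurine, against 156 and 116 FPKM with saline (0.06 ± 0.22, adjusted p = 0.889). Both leonurine libraries lay below both saline libraries for C8a and C8b, and the groups overlapped for C8g. In wild type C8b was lower too, at 112 and 90.0 FPKM with leonurine, against 178, 166 and 180 FPKM with saline. That change was -0.79 ± 0.23 (limma, adjusted p = 0.0706), and the C8b responses differed by -0.03 ± 0.34 (adjusted p = 0.973). C8a was at -0.16 ± 0.22 in wild type (adjusted p = 0.703).

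F10, factor X, the substrate of factor VIIa, sits 1499 bases downstream of F7 on chromosome 8. It was 289 and 259 FPKM in labelled knockouts given leonurine, against 169 and 170 FPKM in labelled knockouts given saline (log2 fold change 0.69 ± 0.18, limma adjusted p = 0.0807). F10 passed after median-ratio scaling (0.91, adjusted p = 0.0309). F2, prothrombin, was 959 and 901 FPKM with leonurine, against 648 and 688 FPKM with saline, and did not pass (0.48 ± 0.19, adjusted p = 0.184).

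**Figure D3:**
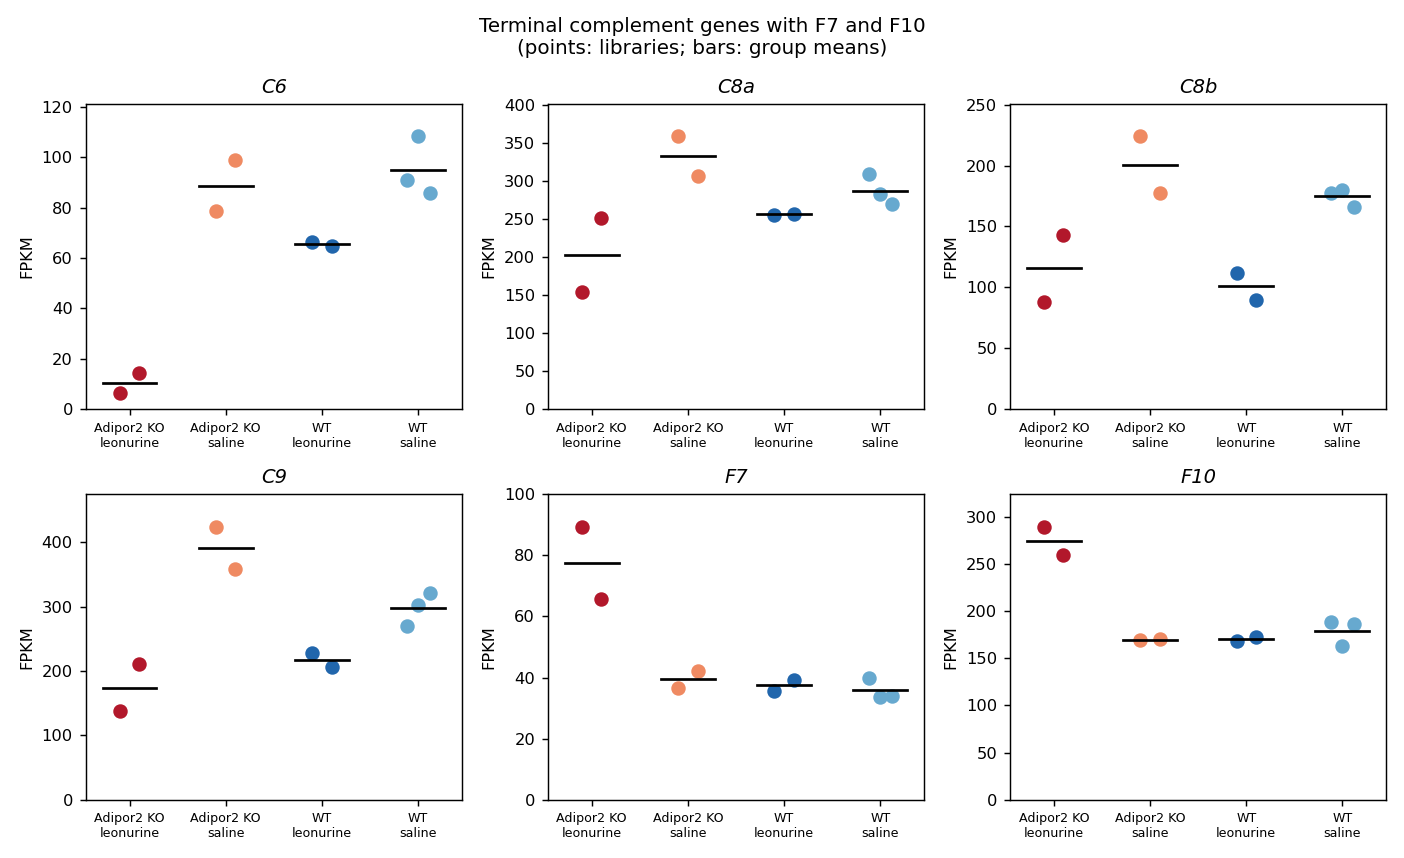
FPKM (vertical axes from 0) in each library of 6 genes, the terminal complement genes C6, C8a, C8b and C9 and the clotting factors F7 and F10, by group, with points for libraries and bars for group means. C6 is at 6.47 and 14.4 FPKM in labelled knockouts given leonurine and at 64.9 FPKM or more elsewhere, and F7 and F10 have their highest values in the same 2 libraries.

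Both members that fell were complement genes, of 16 tested, the 1 that rose was among 16 clotting genes, and 0 of 11 inhibitors passed by limma, with 2 at an unadjusted p under 0.05, as had 2339 of all 10451 tested genes. The median log2 fold change was 0.09 over the 43 genes and -0.19 over all tested genes, a general shift that median-ratio scaling moved to -0.01. The 4 Y-linked genes and 3 of 3 male-biased liver genes were called lower in this comparison and 3 of 3 female-biased liver genes higher. Plasma terminal complement activity is known to differ between male and female mice. Treatment and sex cannot be told apart here for C6, C9, F7 or any other gene. The neutrophil markers summed to 25.5 and 63.5 FPKM with leonurine, against 14.3 and 5.87 FPKM with saline, and their part in these results was not tested.

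None of the 6 genes that passed in wild type passed in labelled knockouts. Fga was 1676 and 3111 FPKM in labelled knockouts given leonurine, against 1728 and 2107 FPKM in those given saline (log2 fold change 0.26 ± 0.39, limma adjusted p = 0.717). Fgb and Fgg were at -0.03 ± 0.36 and -0.08 ± 0.36 (adjusted p = 0.968 and 0.922), and their sign turned with median-ratio scaling and without leonurine replicate 1. Klkb1 was at 0.27 ± 0.41, Mbl2 at -0.12 ± 0.43 and Proc at 0.29 ± 0.19 (adjusted p = 0.717, 0.893 and 0.397). For the fibrinogen genes the leonurine libraries lay on both sides of the saline libraries.

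The difference between the responses, labelled knockout minus wild type, was then tested directly. C6 was the 1 member that passed, at -2.54 ± 0.41 on the log2 scale (limma, adjusted p = 0.0142), where 2.03% of all tested genes were called lower. In wild type C6 was 66.5 and 64.9 FPKM with leonurine, against 90.8, 85.9 and 108 FPKM with saline, a difference that did not pass (log2 fold change -0.52 ± 0.28, adjusted p = 0.283). No member was called higher, where 1.71% of all tested genes were, and 17 of 43 had an unadjusted p under 0.05, as did 2146 of all 10451 tested genes. The fibrinogen genes missed the threshold, at -1.66 ± 0.52 for Fga (adjusted p = 0.115), -1.77 ± 0.49 for Fgb (0.0802) and -1.84 ± 0.49 for Fgg (0.0739). Klkb1 was at 2.21 ± 0.55 (adjusted p = 0.0618), Proc at 1.01 ± 0.26 (0.0699) and Mbl2 at 1.69 ± 0.58 (0.137). F7 and C9 were at 0.88 ± 0.26 (adjusted p = 0.101) and -0.74 ± 0.32 (0.225). Klkb1 and Proc passed after median-ratio scaling (adjusted p = 0.0323 and 0.0234) and after quantile normalization (0.0451 and 0.0497). Without wild type given leonurine replicate 1, Klkb1 was at 3.02, Proc at 1.23, Mbl2 at 2.49, Fga at -2.17, Fgb at -2.24 and Fgg at -2.33. Without replicate 2 of that group Klkb1 was at 1.40 and Mbl2 at 0.89. Each of these 2 fits leaves 1 library in that group, which adds nothing to the estimate of spread. With all 9 libraries a difference between the genotypes in the response of the fibrinogen genes was not shown. The C6 difference ended with no filter on low values (adjusted p = 0.0564). The counts of called members also changed when either library of wild type given leonurine was left out.

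With saline alone, labelled knockouts and wild type were compared to ask what the genotype label does without leonurine. None of the 43 members passed in either direction by limma, where 0.00957% of all tested genes were called higher and 0.00957% lower, and 1 member had an unadjusted p under 0.05, as had 1379 of all 10451 tested genes. The member was C8g, at 156 and 116 FPKM in labelled knockouts, against 93.4, 107 and 93.3 FPKM in wild type (log2 fold change 0.46 ± 0.20, adjusted p = 0.371). C9 was 424 and 359 FPKM in labelled knockouts, against 270, 322 and 302 FPKM in wild type (0.39 ± 0.21, adjusted p = 0.458). Thbd, the endothelial thrombin receptor that activates protein C, was 5.24 and 3.51 FPKM in labelled knockouts, against 7.41, 5.52 and 6.27 FPKM in wild type (-0.47 ± 0.26, adjusted p = 0.462). Tfpi, which shuts off the factor VIIa and tissue factor complex, was 2.04 and 2.63 FPKM in labelled knockouts, against 1.39, 1.86 and 1.93 FPKM in wild type (0.29 ± 0.17, adjusted p = 0.481). All 43 log2 fold changes lay between -0.47 and 0.46, and the count was 0 in every alternative fit.

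With leonurine, labelled knockouts and wild type differed more widely. Of the 43 members 7 were higher in labelled knockouts, where 6.99% of all tested genes were called higher, and 5 were lower, where 5.25% were called lower. The median log2 fold change was 0.23 over the members and 0.01 over all tested genes. This comparison shares its libraries with the 2 leonurine comparisons above, so it gives the same values from another side. Sex and genotype cannot be told apart in it. By role, complement had 2 higher and 1 lower of 16, clotting 3 higher and 3 lower of 16, and inhibitors 2 higher and 1 lower of 11.

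Among complement genes, C6 was lower by a log2 fold change of -2.64 ± 0.30 (adjusted p = 0.00147), and Mbl2 was higher at 439 and 400 FPKM in labelled knockouts, against 204 and 66.6 FPKM in wild type (1.83 ± 0.43, adjusted p = 0.0242). C8g was also higher, at 161 and 123 FPKM in labelled knockouts, against 76.0 and 63.1 FPKM in wild type (1.01 ± 0.22, limma adjusted p = 0.0184).

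Among clotting genes, Klkb1 was higher at 56.3 and 51.5 FPKM in labelled knockouts, against 23.1 and 6.88 FPKM in wild type (1.99 ± 0.41, limma adjusted p = 0.0149). F7 was 89.3 and 65.7 FPKM in labelled knockouts, against 35.5 and 39.3 FPKM in wild type (1.02 ± 0.20, adjusted p = 0.0121). F10 was higher by 0.68 ± 0.18 (adjusted p = 0.0349), a call that ended with quantile normalization (0.32, adjusted p = 0.248). Fga, Fgb and Fgg were lower by log2 fold changes of -1.80 ± 0.39, -1.64 ± 0.36 and -1.65 ± 0.36 (adjusted p = 0.0181, 0.0199 and 0.0197). Quantile normalization also ended the calls of Fga (-1.13, adjusted p = 0.0918) and Fgb (-0.73, adjusted p = 0.141).

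Among the inhibitors, Proc was 268 and 251 FPKM in labelled knockouts, against 153 and 113 FPKM in wild type (0.98 ± 0.19, limma adjusted p = 0.0136). Serpind1 was 414 and 421 FPKM in labelled knockouts, against 264 and 146 FPKM in wild type (1.08 ± 0.26, adjusted p = 0.0276). Thbd was the inhibitor gene that was lower, at 1.61 and 3.38 FPKM in labelled knockouts, against 11.9 and 7.78 FPKM in wild type (-1.66 ± 0.28, adjusted p = 0.00816). Lack of overlap between the groups did not set called genes apart, since it also held for uncalled members such as C3 and Serpinc1. Its share over all tested genes was not counted. Leaving out labelled knockout given leonurine replicate 1 ended every call but that of C6, with adjusted p between 0.0576 (Thbd) and 0.161 (F10). Without wild type given leonurine replicate 2, the calls of Fga, Fgb, Fgg, C8g, F10 and Serpind1 ended (adjusted p = 0.0729 to 0.0828), and Klkb1 and Mbl2 were at 1.18 and 1.03. Without wild type given leonurine replicate 1, Klkb1 and Mbl2 were at 2.80 and 2.64. Without labelled knockout given leonurine replicate 2 the calls of Mbl2, F10 and Serpind1 ended (0.0615, 0.0574 and 0.0761). Leaving out any 1 library of wild type given saline ended the calls of F10 (0.0700 to 0.0727) and Serpind1 (0.0524 to 0.0568). With no other libraries than the 4 compared, C6 and Thbd passed and the other 10 did not. Markers of other cells differed too. The 5 hepatocyte markers summed to 80161 and 82196 FPKM in labelled knockouts, against 56482 and 33532 FPKM in wild type, with Apoh and Ttr called higher. Most of each sum was Alb, and Tat went the other way, at 492 and 690 FPKM in labelled knockouts, against 732 and 735 FPKM in wild type. The 5 sinusoidal endothelial markers summed to 97.8 and 80.4 FPKM in labelled knockouts, against 74.1 and 70.7 FPKM in wild type, with 2 called higher and 1 lower. Their part in these results was not tested.

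**Figure D4:**
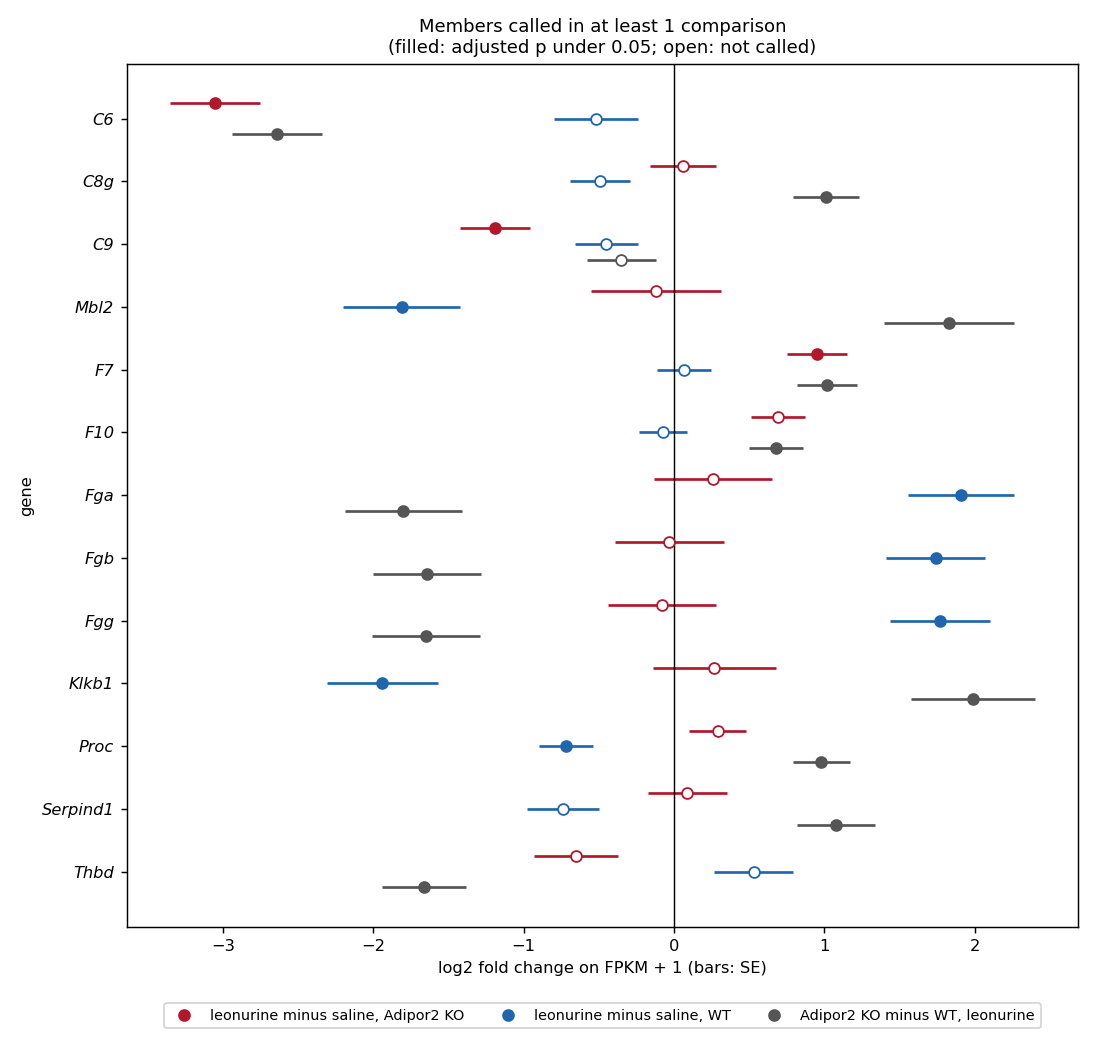
Log2 fold change on FPKM + 1 (horizontal axis, bars for SE) of the 13 genes called in at least 1 of the comparisons drawn: leonurine minus saline in labelled knockouts, leonurine minus saline in wild type, and labelled knockout minus wild type under leonurine. Filled points passed and open points did not. Fga, Fgb and Fgg lie at 1.74 to 1.91 in wild type and between -0.08 and 0.26 in labelled knockouts, and C6 lies farthest to the left, at -3.05, in labelled knockouts.

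Neighbouring genes of the set did not always move together. Of the 44 genes, 9 pairs lay within 100000 bases of each other. F11 and Klkb1 arose by duplication of the same ancestral gene and lie 4658 bases apart on chromosome 8. In wild type F11, the clotting factor XI, was 40.5 and 41.1 FPKM with leonurine, against 32.7, 26.8 and 26.7 FPKM with saline (log2 fold change 0.50 ± 0.19, limma adjusted p = 0.153), where Klkb1 was at -1.94. C2 and Cfb, the related protease subunits of the classical and alternative convertases, are separated by 86 bases on chromosome 17 and were at -0.54 and 0.17. F7 and F10 were at 0.95 and 0.69 with leonurine in labelled knockouts and at 0.07 and -0.07 in wild type. The sources used here do not state whether strand was used in counting, so reads of close neighbours may be shared. C1ra, C1s1, C4b, Kng1 and Kng2 each have a close mouse paralog, which makes their separate levels uncertain.

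Another 55 genes of these pathways in the table were examined in the same fits, and 43 of them could be tested. With leonurine in wild type 2 of 43 were called higher, where 1.9% of all tested genes were, and 0 lower, both of them protease inhibitors. Serpina10, the protein Z-dependent inhibitor of factor Xa, was 355 and 532 FPKM with leonurine, against 152, 120 and 125 FPKM with saline (log2 fold change 1.71 ± 0.21, limma adjusted p = 0.00414). This call passed in 17 of 17 alternative fits. A2m, alpha-2-macroglobulin, was 9.58 and 933 FPKM with leonurine, against at most 0.237 FPKM with saline (6.38 ± 1.37, adjusted p = 0.0288). The 2 leonurine libraries thus differed widely, and leaving out saline replicate 1, 2 or 3 ended the call (0.0683, 0.0886 and 0.0872). It also ended with no filter on low values (0.105), with voom on whole fragments (0.0538) and with only the libraries of the comparison (0.0634).

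With leonurine in labelled knockouts 0 of the 43 were called higher, where 0.603% of all tested genes were, and 2 lower, where 1.49% were. Serpine2, protease nexin 1, a cell-surface thrombin inhibitor, was 0.613 and 0.777 FPKM with leonurine, against 13.9 and 9.65 FPKM with saline (log2 fold change -2.89 ± 0.20, limma adjusted p = 7.25e-05). F2r, the thrombin receptor PAR1, was 3.45 and 4.69 FPKM with leonurine, against 20.6 and 17.4 FPKM with saline (-1.99 ± 0.18, adjusted p = 0.000403). Both passed in 16 of 16 alternative fits. The difference between the responses passed for 3 genes, where 2.03% of all tested genes were called lower, each with a negative difference (labelled knockout minus wild type): Serpine2 at -2.63 ± 0.28, F2r at -1.75 ± 0.25 and Serpina10 at -1.64 ± 0.31 (adjusted p = 0.00174, 0.00796 and 0.0256). Serpina10 was 173 and 198 FPKM in labelled knockouts given leonurine and 177 and 174 FPKM in those given saline. The Serpina10 difference ended without labelled knockout given leonurine replicate 1 (adjusted p = 0.0728), without either labelled knockout given saline (0.0855 and 0.0600) and without wild type given saline replicate 2 or 3 (0.0842 and 0.0765). It also ended with no filter on low values (0.0627).

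Between the genotypes 0 of the 43 were called by limma under saline, with 1 at an unadjusted p under 0.05, as had 1379 of all 10451 tested genes. That gene was Serpine2, at 13.9 and 9.65 FPKM in labelled knockouts, against 3.96, 3.11 and 4.60 FPKM in wild type (log2 fold change 1.38 ± 0.19, limma adjusted p = 0.0673). Under leonurine 3 of 43 were higher in labelled knockouts, where 6.99% of all tested genes were, and 5 were lower, where 5.25% were. Those with the smallest p were F2r at -1.39 ± 0.18, Serpine2 at -1.25 ± 0.20, Serpina10 at -1.23 ± 0.23 and Cd59a, an inhibitor of the membrane attack complex, at 1.11 ± 0.23 (limma, adjusted p = 0.00265, 0.00678, 0.0118 and 0.0151). Cd59a was 13.4 and 9.33 FPKM in labelled knockouts, against 5.51 and 3.91 FPKM in wild type, and its call ended without labelled knockout given leonurine replicate 1 (0.101) or wild type given leonurine replicate 2 (0.0893). The calls of Serpine2 and Serpina10 ended without labelled knockout given leonurine replicate 1 (0.0502 and 0.0784).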

How the data were processed

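Total RNA of whole liver was sequenced in 9 libraries, each placed in its group by its title, per the labels. The authors deposited 1 table of FPKM values for 16857 genes, and 0 numeric columns were left unmatched to a library. Tools listed in the submitters' processing notes are HTSeq, HISAT2, fastp and R version 3.2.0, with the build mm10. Their roles and order, the annotation, strand use and gene filters are not given in the sources used here. FPKM is relative to each library's total, so abundant transcripts such as fibrinogen can lower all other values.

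Whole fragment numbers were recovered from the ratios of FPKM values between libraries for 16857 of 16857 genes (tolerance 1e-04), and totals were 35316653 to 38996734. The ratios give the smallest whole numbers that fit, so a factor common to all values of a gene would be lost. In the median gene 3 fragments equalled 0.0221 to 0.0246 FPKM, a limit for counting error only. No 2 libraries were alike within sampling noise (36 pairs, smallest chi-square per degree of freedom 30.8).

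Tests used limma (version 3.58.1, R version 4.3.3), with a trend, on log2(FPKM + 1), which understates changes of low genes. Genes with at least 1 FPKM in at least 2 libraries (10451) were fitted with 1 mean per group over all 9 libraries, giving 5 residual and 4.4 prior degrees of freedom. Tests were two-sided and called at a Benjamini-Hochberg adjusted p under 0.05 over those genes. The fit was tested on simulated data. A fold change is the first-named group over the second. Positions are from GENCODE M21 (GRCm38, the same assembly as mm10) and promoter sequences from RefSeq.

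Members and gene lists were chosen with earlier results of these data known. Each member called in a comparison is named, or the 4 with the smallest p where fewer than 4 were called, as are up to 4 other pathway genes per comparison. A gene of the wider pathway list is not reported here. Other members with values (C3, Kng1, Kng2, Serpind1, C8a, C8b, C8g, F10, F2 and F11 where not called) were picked after their values were seen. Alternatives were a pseudocount of 0.1, no filter on low values, median-ratio scaling, quantile normalization, voom on whole fragments, the replicate number as a block, only the libraries of a comparison, and leaving out each library. Leaving out both labelled knockouts given leonurine was added after seeing the data.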

Additional observations from a re-analysis of the deposited data

Results flagged for a closer look

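The leonurine response differed between labelled knockouts and wild type, by a direct test of the difference (limma, labelled knockout minus wild type, on log2(FPKM + 1)), for 4 genes of complement, clotting and their control. These were 1 of 43 tested members and 3 of 43 other pathway genes, all called lower, where 2.03% of all 10451 tested genes were. None of either list was called higher, where 1.71% of all tested genes were. C6 differed by -2.54 (adjusted p = 0.0142), with log2 fold changes of -3.05 in labelled knockouts and -0.52 in wild type. Serpine2 differed by -2.63 and F2r by -1.75 (adjusted p = 0.00174 and 0.00796), where the leonurine response was lower in labelled knockouts. Serpine2 was also 13.9 and 9.65 FPKM in labelled knockouts given saline, against 3.96, 3.11 and 4.60 FPKM in wild type given saline (log2 fold change 1.38, adjusted p = 0.0673), so its difference holds a gap between the saline groups as well. Serpina10 differed by -1.64 (adjusted p = 0.0256), and 7 of 15 alternative fits ended this call, with adjusted p up to 0.0855. The labelled knockouts given leonurine had 0 and 2 Y-linked fragments, so sex and the differences of all 4 genes cannot be told apart.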

How the results depend on the processing

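The counts of called members depended on the processing in 4 of the 5 comparisons, and both counts between genotypes under saline were 0 throughout. With leonurine in wild type, 3 were higher and 3 lower. No member was higher and none lower (0 and 0) with no filter on low values or with the replicate number as a block, and 1 was higher after quantile normalization. Leaving out 1 library gave 0 to 5 higher and 0 to 6 lower, and leaving out both labelled knockouts given leonurine gave 3 and 3. With leonurine in labelled knockouts, the 1 higher member became 0 with no filter, with the block or with only the libraries of the comparison, and 2 after median-ratio scaling. The 2 lower became 1 under each of these and after quantile normalization, and leaving out 1 library gave 0 to 1 higher and 1 to 2 lower. For the difference between responses, median-ratio scaling and quantile normalization gave 2 higher each, no filter gave 0 lower, and leaving out 1 library gave 0 to 5 higher and 1 to 4 lower. Between genotypes under leonurine, 7 higher and 5 lower became 4 and 2 with no filter and 0 and 2 with only the libraries of the comparison, and leaving out 1 library gave 0 to 10 and 1 to 6. No filter tested 16857 genes and so changed the adjustment and the shared variance, and leaving out libraries removed samples; the cause of the other changes was not tested.

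Signs turned for differences that had not passed. With leonurine in labelled knockouts, median-ratio scaling gave 0.10 for Mbl2, 0.19 for Fgb and 0.15 for Fgg, and quantile normalization gave 0.01 for Fgb. Leaving out 1 library gave -0.32 to 0.08 for Mbl2, -0.19 to 0.70 for Fga, -0.42 to 0.36 for Fgb and -0.48 to 0.32 for Fgg, and in wild type a lowest value of -0.00 for F7. Of 881 alternative values for 55 named results, 728 kept their direction and side of the threshold, 130 lost the call, 12 gained one and 11 turned sign.

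Over all tested genes the calls were 199 higher and 493 lower with leonurine in wild type, but 343 and 403 after median-ratio scaling. In labelled knockouts they were 63 and 156, but 114 and 91, and for the difference 179 and 212, but 365 and 225. The median gene was at -0.12 in wild type and -0.19 in labelled knockouts before that scaling.

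The replicate numbers do not pair the libraries by the labels. Deviations from the group mean correlated at 0.020 to 0.154 in the 12 same-numbered pairs, and 8 of 9 libraries correlated best with a library of their own number. In groups of 2 libraries the deviations mirror each other, so the pairs are not independent. These values therefore cannot decide whether libraries are paired. With the replicate block 0 members were called in wild type, and of the other pathway genes the call of A2m in wild type (adjusted p = 0.0871) and the difference of Serpina10 between responses (0.0789) also ended.

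Groups of 2 libraries, whole-liver RNA and the difference in Y-linked transcripts between groups limit these values.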
